A study of Mus musculus with 29 samples.

Results

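A set of 10 genes of the p53 response was followed across mouse liver and liver tumours: Trp53, Cdkn1a, Mdm2, Ccng1, Bax, Bbc3, Phlda3, Gadd45a, Gadd45b and Zmat3. They were chosen by name, as the gene for p53 itself, its best known targets and the GADD45 stress genes, and are 10 of the 22187 gene IDs in the deposited table. In tumours, 6 of the 10 (Trp53, Cdkn1a, Mdm2, Bax, Phlda3 and Zmat3) rose, on average 1.68 to 4.48 times, where 36.6% of all genes tested rose, and 4 (Ccng1, Bbc3, Gadd45a and Gadd45b) did not pass the test. No member passed the test for genotype or for diet, comparisons in which only 0% to 1.61% of all genes passed.

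Every mouse had received diethylnitrosamine (DEN), a carcinogen that hepatocytes convert into a DNA-alkylating agent, at 25 mg/kg into the peritoneum when 2 weeks old, and was then kept on its diet for 18 weeks. RNA from tumour or non-tumour liver was sequenced in 29 libraries. The sample labels call the diets HFD and HFD_alcohol (called alcohol here) and the genotypes IL17RA-/- and WT, whereas the series text speaks of C57BL/6 mice on liquid ethanol or pair-fed; the sample labels were used. Non-tumour liver gave 5 libraries labelled IL17RA-/- and 5 WT on alcohol, and 3 and 3 on HFD; tumours gave 4 and 3 on alcohol, and 3 and 3 on HFD. All groups share the carcinogen, so no library shows liver without DEN. No label ties a tumour or non-tumour piece to an animal, so all p-values rest on the spread among libraries, which may be technical in part.

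The protein p53 is a transcription factor that is held low by the ubiquitin ligase Mdm2 and is stabilised when DNA is damaged. It then raises genes that stop the cell cycle (Cdkn1a, which encodes the cyclin-dependent kinase inhibitor p21), promote apoptosis (Bax, Bbc3) or feed back on p53 (Mdm2, Ccng1). The regulation of p53 acts largely on the protein, so transcript levels of its targets are a usual readout of its activity, although several of these genes also answer to other factors.

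p53 binds DNA as a pair of 10-base half-sites, here searched side by side over 20 bases with no spacer. The consensus reads the same on both strands. Each RefSeq promoter window (GRCm38.p6) covers 300 bases around a transcription start. Windows were found for 9 of the 10 members, 12 in all; Zmat3 had none. Cdkn1a and Ccng1 are shown for their near-complete matches, Bax as an apoptosis target that rose, and Trp53 as the gene for the factor itself. Capitals mark the best 20-base match to the paired p53 half-site consensus, and each stretch is given 5′ to 3′ on the gene's strand.
Cdkn1a, chr17:29090908-29090967, plus strand: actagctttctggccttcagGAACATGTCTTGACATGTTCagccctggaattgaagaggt
Ccng1, chr11:40755442-40755501, minus strand: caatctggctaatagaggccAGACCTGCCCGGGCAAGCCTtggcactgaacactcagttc
Bax, chr7:45467070-45467129, minus strand: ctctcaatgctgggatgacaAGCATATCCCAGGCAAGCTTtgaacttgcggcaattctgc
Trp53, chr11:69580264-69580323, plus strand: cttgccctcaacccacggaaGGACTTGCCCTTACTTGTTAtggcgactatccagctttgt

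The Cdkn1a match lay at -51 to -32, counted from the first transcribed base as 0, and had 1 mismatch, as did the Ccng1 match at -195 to -176. The window of a later Cdkn1a start, chr17:29093519-29093818, had a best match with 5 mismatches. Of 32851 windows of the same length, 29 (0.0883%) held a match with at most 1 mismatch. The matches of Bax and Trp53 had 3 mismatches, as had the best matches in 1 window of Bbc3 and in Gadd45a. In all, 6.29% of windows held a match with at most 3 mismatches. The best matches near Mdm2, Phlda3 and Gadd45b had 5 mismatches. The p53 elements known for Mdm2 lie in its first intron, outside this window. An exact single half-site stood in 8.36% of all windows. Windows of Trp53, Mdm2, Ccng1, Bax and Gadd45a held 1 each, and the first Cdkn1a window held 2. The later Cdkn1a window and those of Bbc3, Phlda3 and Gadd45b held none. Such matches describe letters and are not evidence of binding. Both genes with 1 mismatch are compared below: Cdkn1a rose in tumours and Ccng1 did not pass the test over all strata.

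The libraries held 3213696 to 9660584 recovered counts, so 3 counts stood for 0.311 to 0.934 counts scaled to library size (CPM), a floor that covers counting error only. Hepatocyte markers summed to 51400 to 84600 CPM in non-tumour liver and 71900 to 170000 CPM in tumours. Of the 6 markers, though, 2 rose and 3 fell in tumours (36.6% and 27% of all genes), with a median log2 fold change of -0.47. Il17ra transcript was present in every library labelled IL17RA-/-, at 15.9 to 62.9 CPM against 16.1 to 48.5 CPM in WT libraries. Which exons the allele lacks is not stated in the labels, so this is no check of the genotype, which is given as labelled. A few libraries stood apart. The markers Afp and Gpc3, which rise in liver cancer, reached 155 and 263 CPM in non-tumour HFD IL17RA-/- replicate 3, and Afp reached 141 CPM in non-tumour HFD WT replicate 1. The other 14 non-tumour libraries held 0.873 to 32.4 CPM of Afp, and the tumours 105 to 559 CPM. WT tumour HFD replicate 4 was among the lowest tumours for both, with 108 CPM of Afp and 66.3 CPM of Gpc3. These 3 libraries were picked by markers that differ between the tissues, so leaving them out favours larger tumour differences. They and alcohol tumour replicate 5 labelled IL17RA-/- were left out together in an added alternative (the 4 doubted libraries). The last was taken over from an earlier reading of these data; its chi-square distances per gene from the rest of its group, 16.13 to 20.93, were like theirs from each other, 15.22 to 21.89. Non-tumour alcohol replicates 2 and 4 labelled IL17RA-/- were close to each other (12.08) and farther from the other 3 (32.23 to 61.56), and were left out together in another added alternative.

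**Figure D1:**
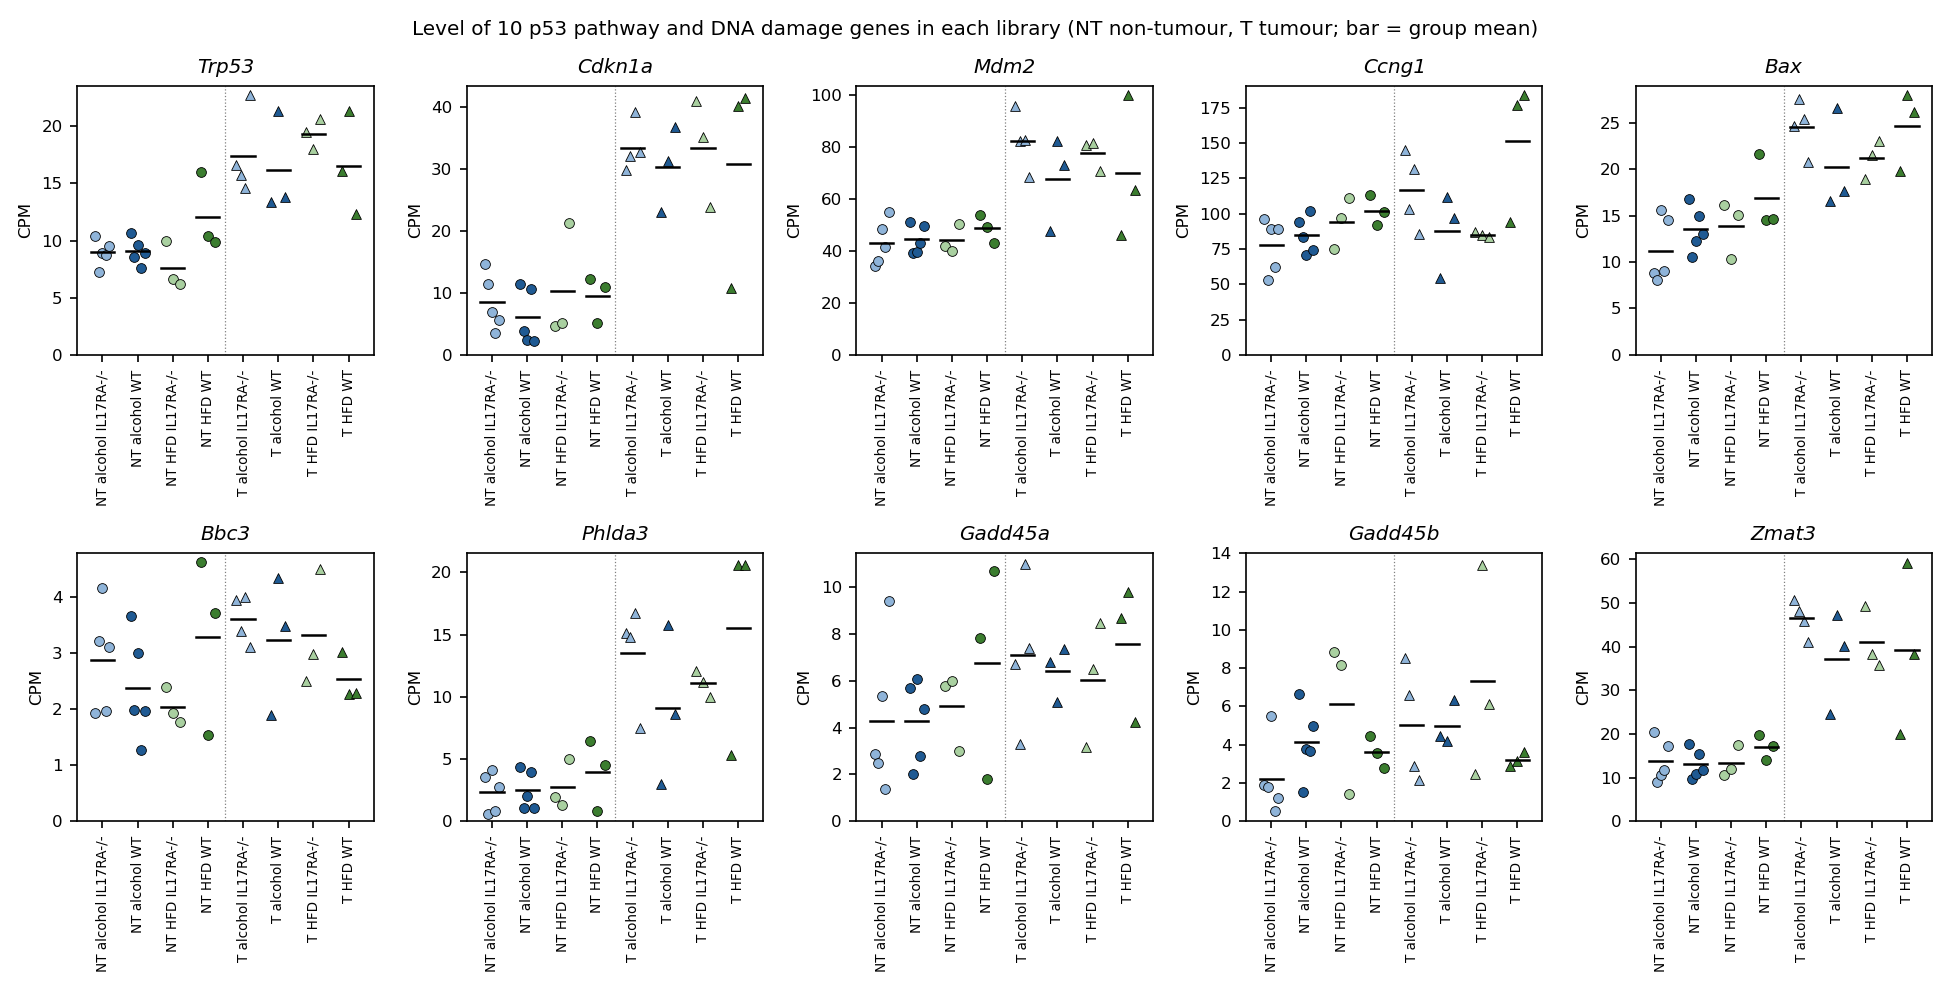
Level of each gene (CPM, linear axis from 0) in each of the 29 libraries, by group; NT is non-tumour and T tumour liver, each point is a library and the bar is the group mean. Tumours stand above non-tumour liver for Cdkn1a (means 32.1 and 8.24 CPM), Phlda3 (12.4 and 2.77 CPM) and Zmat3 (41.4 and 14.1 CPM), while Bbc3 and both Gadd45 genes overlap widely.

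Tumour and non-tumour liver were compared within each of the 4 combinations of diet and genotype (strata), and the 4 differences were averaged. A gene counted as called when its Benjamini-Hochberg adjusted p from limma, over 13586 genes tested, was under 0.05, two-sided. All 10 members passed the filter on low values (1 CPM in at least 3 libraries) and none was at 0 in any library. Over the 4 strata 6 of 10 members were called higher and 0 lower, against 36.6% of all genes called higher. The median log2 fold change was 0.69 over the members and 0.09 over all genes. The share of members called was thus above the background, which was itself large. The members were chosen with earlier results of these data known, and the excess was not tested. It describes these 10 genes only. In bulk tissue a lower level can mean fewer cells of a type or less RNA per cell, and these cannot be told apart.

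Trp53 (ENSMUSG00000059552, chromosome 11, 69580359 to 69591873, GRCm38) encodes p53 itself. In non-tumour liver its libraries held 10.4, 7.25, 8.91, 8.72 and 9.49 CPM (alcohol, labelled IL17RA-/-), 10.7, 8.58, 9.63, 7.63 and 8.92 CPM (alcohol, WT), 10, 6.66 and 6.21 CPM (HFD, labelled) and 16, 10.4 and 9.89 CPM (HFD, WT). Tumours held 16.6, 15.7, 14.6 and 22.7 CPM (alcohol, labelled), 13.4, 21.3 and 13.8 CPM (alcohol, WT), 19.5, 18.0 and 20.6 CPM (HFD, labelled) and 16.1, 21.3 and 12.3 CPM (HFD, WT). Every tumour was above all non-tumour libraries except the 1 at 16 CPM, non-tumour HFD WT replicate 1. The mean rose from 9.34 ± 2.23 CPM (SD, n = 16) to 17.4 ± 3.45 CPM (SD, n = 13), a log2 fold change of 0.83 ± 0.1 (SE, limma adjusted p = 1.39e-07).

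Mdm2 (ENSMUSG00000020184, chromosome 10, 117688875 to 117710758), the ligase that marks p53 for degradation and is itself a p53 target, was second to Ccng1 in CPM. Non-tumour libraries held 34, 36.0, 48.5, 41.3 and 54.9 CPM (alcohol, labelled), 51.1, 39.1, 39.6, 42.8 and 49.4 CPM (alcohol, WT), 42.0, 40 and 50.4 CPM (HFD, labelled) and 53.8, 49.2 and 42.9 CPM (HFD, WT). Tumours held 95.7, 82.1, 82.6 and 68.5 CPM, 47.6, 82.3 and 73.0 CPM, 80.7, 81.3 and 70.7 CPM, and 46.1, 100 and 63.5 CPM in the same order. All but 2 tumours, the WT replicates 4 on alcohol and on HFD, exceeded the highest non-tumour library. Mdm2 rose from 44.7 ± 6.39 to 74.9 ± 16 CPM, a log2 fold change of 0.69 ± 0.1 (limma adjusted p = 2.54e-06).

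Cdkn1a (ENSMUSG00000023067, chromosome 17, 29090976 to 29100727) had the largest log2 fold change of the members. Its non-tumour libraries held 14.6, 11.4, 6.98, 3.51 and 5.69 CPM (alcohol, labelled), 11.4, 3.83, 2.37, 10.6 and 2.23 CPM (alcohol, WT), 4.58, 5.16 and 21.2 CPM (HFD, labelled) and 12.2, 5.11 and 10.9 CPM (HFD, WT). Its tumours held 29.8, 32.0, 39.1 and 32.7 CPM, 23.0, 31.2 and 36.8 CPM, 41.0, 35.2 and 23.9 CPM, and 10.8, 40.2 and 41.4 CPM in the same order. All but 1 of the 13 tumours stood above the highest non-tumour library; the exception, WT HFD replicate 4 at 10.8 CPM, lay within the non-tumour range. The highest non-tumour value, 21.2 CPM, came from the labelled HFD replicate 3 with raised Afp and Gpc3. Cdkn1a rose from 8.24 ± 5.23 to 32.1 ± 8.78 CPM, a log2 fold change of 1.93 ± 0.26 (limma adjusted p = 6.61e-07). Part of Cdkn1a overlaps the annotated gene AC167363.2, and the sources do not state whether counting used strand; the same holds for Bax with Gm45808 and Gadd45a with E230016M11Rik.

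Zmat3 (ENSMUSG00000027663, chromosome 3, 32334792 to 32366014) encodes a zinc finger RNA-binding protein that acts in p53-dependent growth control. Non-tumour libraries held 20.5, 9.07, 10.5, 11.8 and 17.3 CPM (alcohol, labelled), 17.6, 9.8, 10.9, 15.4 and 11.7 CPM (alcohol, WT), 10.7, 12.0 and 17.4 CPM (HFD, labelled) and 19.8, 14.0 and 17.2 CPM (HFD, WT). Tumours held 50.7, 48.3, 45.9 and 41.1 CPM, 24.5, 47.2 and 40.1 CPM, 49.3, 38.3 and 35.8 CPM, and 20.1, 59.1 and 38.3 CPM in the same order. Only WT HFD tumour replicate 4, at 20.1 CPM, fell below the highest non-tumour library, and within its own stratum it was still above the 3 non-tumour libraries. Zmat3 rose from 14.1 ± 3.75 to 41.4 ± 10.6 CPM, a log2 fold change of 1.44 ± 0.15 with the smallest adjusted p of the members (limma, 4.84e-09).

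Phlda3 (ENSMUSG00000041801, chromosome 1, 135766119 to 135769136) encodes a p53-induced inhibitor of the kinase Akt. It was low in non-tumour liver, at 3.53, 0.558, 4.16, 0.843 and 2.76 CPM (alcohol, labelled), 4.33, 1.07, 2.05, 3.96 and 1.05 CPM (alcohol, WT), 1.96, 1.29 and 4.97 CPM (HFD, labelled) and 6.44, 0.852 and 4.5 CPM (HFD, WT). Tumours held 15.1, 14.8, 16.7 and 7.47 CPM, 2.98, 15.8 and 8.64 CPM, 12.1, 11.2 and 10 CPM, and 5.34, 20.6 and 20.6 CPM in the same order. The 2 tumours within the non-tumour range were again the WT replicates 4. Its mean rose 4.48 times, from 2.77 ± 1.81 to 12.4 ± 5.49 CPM, the largest ratio of means among the members, with a log2 fold change of 1.8 ± 0.27 (limma adjusted p = 3.31e-06). Because fold changes were taken on log2(CPM + 1), low genes such as Phlda3 changed by more than these values.

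Among the apoptosis genes, Bax rose and Bbc3 did not pass the test. Bax (ENSMUSG00000003873, chromosome 7, 45461697 to 45466898), which permeabilises the mitochondrial outer membrane, held 8.82, 8.09, 15.6, 9.0 and 14.5 CPM (alcohol, labelled), 16.8, 10.6, 12.3, 15.0 and 13 CPM (alcohol, WT), 16.2, 10.3 and 15.1 CPM (HFD, labelled) and 21.7, 14.5 and 14.7 CPM (HFD, WT) in non-tumour liver. Tumours held 24.7, 27.6, 25.4 and 20.8 CPM, 16.6, 26.6 and 17.7 CPM, 19.0, 21.6 and 23.1 CPM, and 19.8, 28 and 26.2 CPM in the same order. Only 7 tumours exceeded the highest non-tumour library, which again was HFD WT replicate 1. Bax rose from 13.5 ± 3.56 to 22.9 ± 3.85 CPM, a log2 fold change of 0.69 ± 0.11 (limma adjusted p = 5.84e-06). Bbc3 (ENSMUSG00000002083, chromosome 7, 16308393 to 16318205), which encodes the BH3-only protein PUMA, was at 2.64 ± 1.01 CPM in non-tumour liver and 3.21 ± 0.83 CPM in tumours. Its log2 fold change was 0.22 ± 0.14, with a 95% confidence interval of -0.06 to 0.5 (limma adjusted p = 0.16), and 0 of 13 tumours exceeded the highest non-tumour library. Its values, 1.27 to 4.62 CPM over the 29 libraries, lie little above the floor.

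Ccng1 (ENSMUSG00000020326, chromosome 11, 40748552 to 40755311), which encodes cyclin G1, a p53 target that recruits a phosphatase to Mdm2, was the most abundant member also per length, with a median of 25.9 CPM per kb of exon in non-tumour liver and 27.5 in tumours. The corresponding medians were 1.78 and 9.2 CPM per kb for Cdkn1a, and 8.44 and 15.9 for Mdm2. Tumour libraries held 145, 103, 132 and 85.9 CPM (alcohol, labelled), 54.2, 112 and 96.7 CPM (alcohol, WT), 87.2, 85.2 and 83.2 CPM (HFD, labelled) and 94.1, 177 and 184 CPM (HFD, WT), against 53.3 to 113 CPM over non-tumour liver. The tumours thus covered most of the non-tumour range, with 4 above its highest library and none below its lowest. The mean was 87.8 ± 16.9 CPM in non-tumour liver and 111 ± 38.4 CPM in tumours, a log2 fold change of 0.24 ± 0.12 with an interval of -0.02 to 0.49 (limma adjusted p = 0.0946). Ccng1 was called without WT alcohol tumour replicate 4 (0.31), without WT HFD tumour replicate 4 (0.32) and without the 4 doubted libraries (0.38).

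The stress sensors Gadd45a (ENSMUSG00000036390, chromosome 6, 67035096 to 67037457) and Gadd45b (ENSMUSG00000015312, chromosome 10, 80930073 to 80932204) encode small proteins that bind cell cycle and kinase partners. Gadd45a is a p53 target, while Gadd45b is known mainly as a target of NF-kappaB and TGF-beta signalling. Gadd45a was at 4.87 ± 2.77 CPM in non-tumour liver and 6.81 ± 2.39 CPM in tumours, a log2 fold change of 0.45 ± 0.24 (interval -0.04 to 0.94, limma adjusted p = 0.101). It was called without labelled non-tumour alcohol replicate 5 (0.52) or non-tumour HFD WT replicate 3 (0.55), its 2 highest non-tumour libraries at 9.4 and 10.7 CPM. Gadd45b was at 3.81 ± 2.5 and 5.15 ± 3.14 CPM, a log2 fold change of 0.34 ± 0.25 (interval -0.18 to 0.86, limma adjusted p = 0.241). In each of these genes only 1 of 13 tumours exceeded the highest non-tumour library: 11 CPM of Gadd45a and 13.4 CPM of Gadd45b.

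No member separated all 13 tumours from all 16 non-tumour libraries, which 2.84% of genes did. Leaving out the 4 doubted libraries, which were picked in part by tumour markers, 7 members were called higher, as were 4762 of 13521 genes. The log2 fold changes were then 2.3 for Cdkn1a, 2.14 for Phlda3, 1.61 for Zmat3, 0.86 for Trp53, 0.8 for Mdm2 and 0.78 for Bax. Limma-voom on recovered counts called 6 members higher, and 4786 of 13586 genes.

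**Figure D2:**
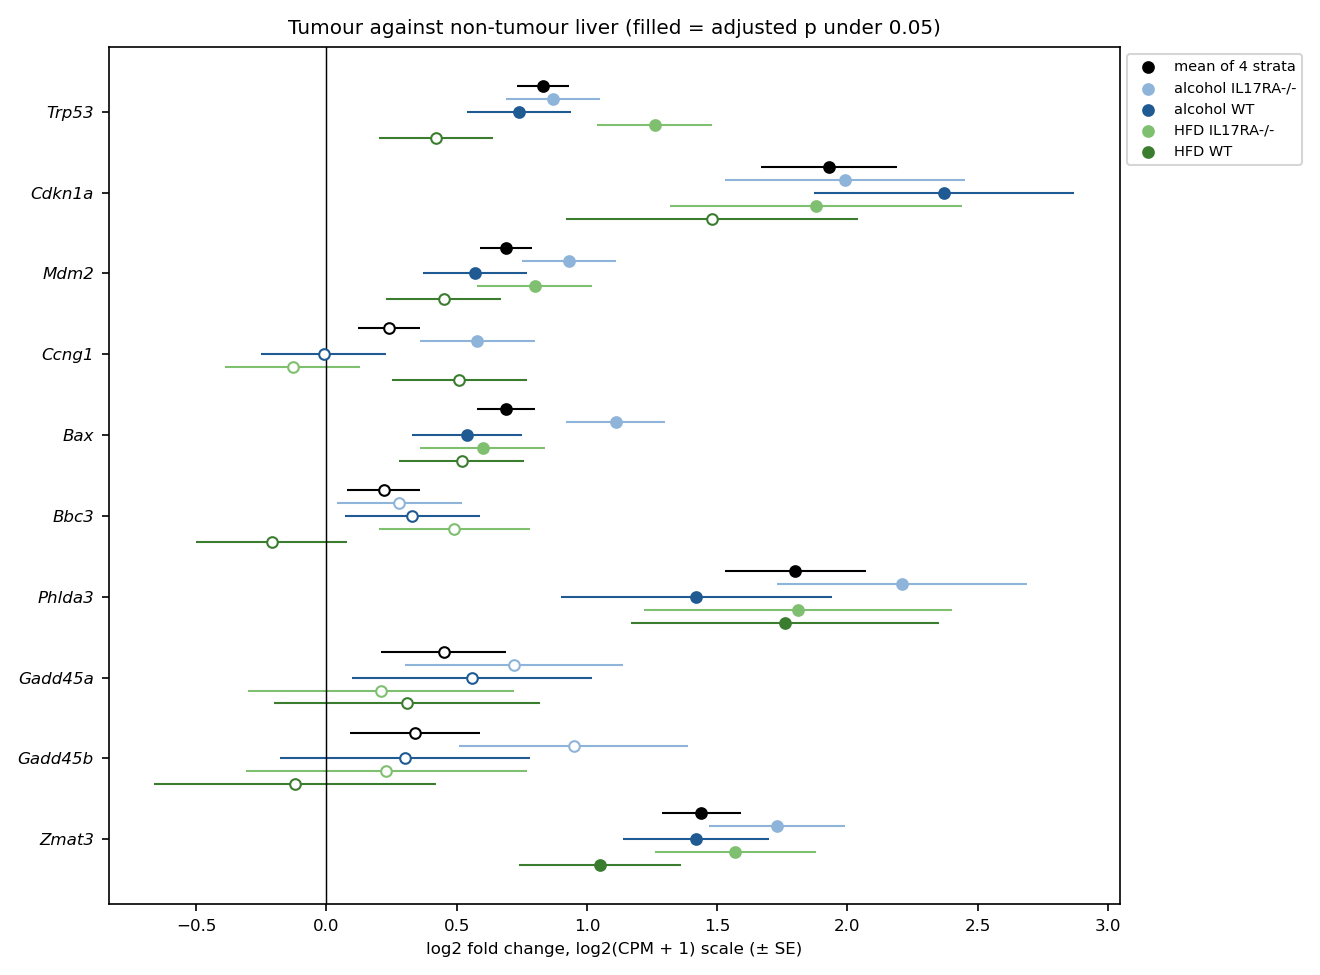
Log2 fold change of tumour against non-tumour liver (log2(CPM + 1) scale, bars are SE) for each gene, over the mean of the 4 strata and in each stratum; filled points passed the adjusted p threshold of 0.05. Cdkn1a, Phlda3 and Zmat3 lie farthest right, at 1.93, 1.8 and 1.44 over the strata, and only Phlda3 and Zmat3 are filled in HFD WT.

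The rise was looked at within each stratum. On alcohol, libraries labelled IL17RA-/- showed 7 members called higher (21.8% of all genes): Cdkn1a at 1.99 ± 0.46 (adjusted p = 0.00134), Phlda3 at 2.21 ± 0.48, Zmat3 at 1.73 ± 0.26, Bax at 1.11 ± 0.19, Mdm2 at 0.93 ± 0.18, Trp53 at 0.87 ± 0.18 and Ccng1 at 0.58 ± 0.22 (adjusted p = 0.0364, by limma). The Ccng1 call was lost in 7 of 17 alternatives, including the fit without non-tumour replicates 2 and 4 (0.31). With the replicate number as a block 6 members were called higher, as were 1046 of 13586 genes. Trp53 (0.76 ± 0.28, limma adjusted p = 0.0666) and Ccng1 (0.70 ± 0.32, adjusted p = 0.147) were not called, and Gadd45b was (2.20 ± 0.60, adjusted p = 0.0171). On alcohol in WT, 6 members were called higher (16.6% of all genes), with Cdkn1a at 2.37 ± 0.5, Phlda3 at 1.42 ± 0.52 and Bax at 0.54 ± 0.21, the last at a limma adjusted p of 0.0471. That count fell to 3 with the replicate number as a block (1021 of 13586 genes called higher) and to 2 without tumour replicate 5 (1517 of 13547). It was 3 without tumour replicate 6 or non-tumour replicate 2 or 3 (1743, 1892 and 2027 genes called higher). In this stratum Phlda3 lost its call in 8 of 14 alternatives and Bax in 7.

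On HFD, libraries labelled IL17RA-/- had 6 members called higher (23.9% of all genes), with Trp53 at its largest, 1.26 ± 0.22 (limma adjusted p = 7.81e-05). Bax, at 0.6 ± 0.24 (limma adjusted p = 0.0442), lost its call in 8 of 12 alternatives. The count of members fell to 3 without non-tumour replicate 2 (2250 of 13579 genes called higher). On HFD in WT, 2 members were called higher (7.64% of all genes), Phlda3 at 1.76 ± 0.59 (limma adjusted p = 0.0424) and Zmat3 at 1.05 ± 0.31 (adjusted p = 0.0234). Cdkn1a there was at 1.48 ± 0.56 (adjusted p = 0.0785). This stratum holds 2 of the libraries that stood apart. Its count was 5 without WT tumour replicate 4 (1188 of 13568 genes called higher) and 6 without the 4 doubted libraries (1257 of 13521). It was 0 without non-tumour replicate 2 or 3 or tumour replicate 5 or 6 (426, 510, 466 and 1234 genes called higher). By non-overlap, every tumour stood above every non-tumour library for 6 members on alcohol with the IL17RA-/- label (15.1% of all genes), 3 in alcohol WT (17% of all genes), 7 on HFD with the label (32.4% of all genes) and 1, Zmat3, in HFD WT (12.7% of all genes).

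Passing in one stratum and not in another does not show that strata differ, so the difference itself was tested. The tumour effect was not called to differ by genotype on alcohol (0% of all genes) or on HFD (0.00736% of all genes), nor by diet with the IL17RA-/- label (0% of all genes) or in WT (0.00736% of all genes), for any member. The smallest unadjusted value was that of Trp53 on HFD, whose tumour effect was 0.84 ± 0.31 larger with the IL17RA-/- label than in WT (interval 0.2 to 1.48, limma adjusted p = 0.2). For Cdkn1a the corresponding difference was 0.4 ± 0.8, with an interval of -1.24 to 2.04, so a difference as large as its tumour effect could not be resolved. For Zmat3 it was 0.52 ± 0.44 (-0.39 to 1.43).

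The genotype comparison asks whether these genes differ with the IL17RA-/- label, since the series title concerns IL-17 signalling in liver cancer. In non-tumour liver no member was called on alcohol (0% of all genes) or on HFD (0% of all genes). Across all genes 330 and 461 had an unadjusted p under 0.05 by limma, and limma-voom called no member either. On alcohol, Cdkn1a was 0.53 ± 0.48 higher with the label (interval -0.5 to 1.55), Mdm2 differed by -0.06 ± 0.13 (-0.34 to 0.22) and Zmat3 by 0.05 ± 0.22 (-0.41 to 0.51). On HFD the lowest unadjusted p was that of Trp53, at 10, 6.66 and 6.21 CPM with the label against 16, 10.4 and 9.89 CPM in WT. These groups overlapped by 1 pair of values, and the difference was -0.6 ± 0.2 (limma adjusted p = 0.9), or -0.39 without WT replicate 1. Rescaling libraries by median ratios moved the median of all genes in this comparison from -0.12 to 0.01, and Trp53 to -0.47.

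In tumours no member was called by genotype on alcohol (0% of all genes) or on HFD (1.61% of all genes, 213 of 13269). Ccng1 in HFD tumours was at 87.2, 85.2 and 83.2 CPM with the label and 94.1, 177 and 184 CPM in WT. Its difference was -0.76 ± 0.29 (interval -1.4 to -0.13, limma adjusted p = 0.151). In this comparison 2986 of 13269 genes had an unadjusted p under 0.05 by limma. Intervals for Cdkn1a were -0.64 to 0.94 on alcohol and -0.56 to 1.14 on HFD, and for Mdm2 -0.21 to 0.82 and -0.34 to 0.77. Among 41 other p53 targets tested in HFD tumours, 1 fell and 1 rose. Rps27l, a ribosomal protein-like p53 target with the close paralog Rps27, was at 57 ± 3.59 CPM with the label and 107 ± 11.8 CPM in WT (log2 fold change -0.89 ± 0.18, limma adjusted p = 0.0373). Gls2, the liver-type glutaminase, was at 154 ± 3.69 and 60.2 ± 15.4 CPM (1.37 ± 0.31, adjusted p = 0.0469). Over all genes the count of calls here was 0 without labelled replicate 4 or 6, 1 without labelled replicate 5 and 3 without WT replicate 4, so both calls depend on single libraries.

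For diet, no member was called between alcohol and HFD in non-tumour liver, either with the IL17RA-/- label (0% of all genes) or in WT (0% of all genes), nor in tumours with the label (0% of all genes) or in WT (0.00754% of all genes). Limma-voom likewise called 0 members. Gadd45b in non-tumour liver with the label was at 1.92, 1.81, 5.49, 0.562 and 1.21 CPM on alcohol and 8.84, 8.17 and 1.45 CPM on HFD. The groups overlapped, and the difference of -1.09 ± 0.48 (interval -2.11 to -0.07) did not pass (limma adjusted p = 0.858). Ccng1 in WT tumours was at 54.2, 112 and 96.7 CPM on alcohol and 94.1, 177 and 184 CPM on HFD, a difference of -0.79 ± 0.29 (interval -1.42 to -0.15, limma adjusted p = 0.236). This uses the same 3 WT HFD tumours as its genotype difference. For Cdkn1a the diet difference was -0.73 ± 0.56 (-1.91 to 0.46) in WT non-tumour liver and 0.17 ± 0.39 (-0.68 to 1.02) in WT tumours. No interaction of genotype and diet was called for a member in non-tumour liver (0% of all genes) or in tumours (0% of all genes). The lowest unadjusted p was that of Ccng1 in tumours, 1.2 ± 0.4 with an interval of 0.34 to 2.07 (limma adjusted p = 0.302). In non-tumour liver it was that of Trp53, 0.58 ± 0.26 with an interval of 0.03 to 1.12 (adjusted p = 0.965), so an interaction is not excluded for either gene.

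**Figure D3:**
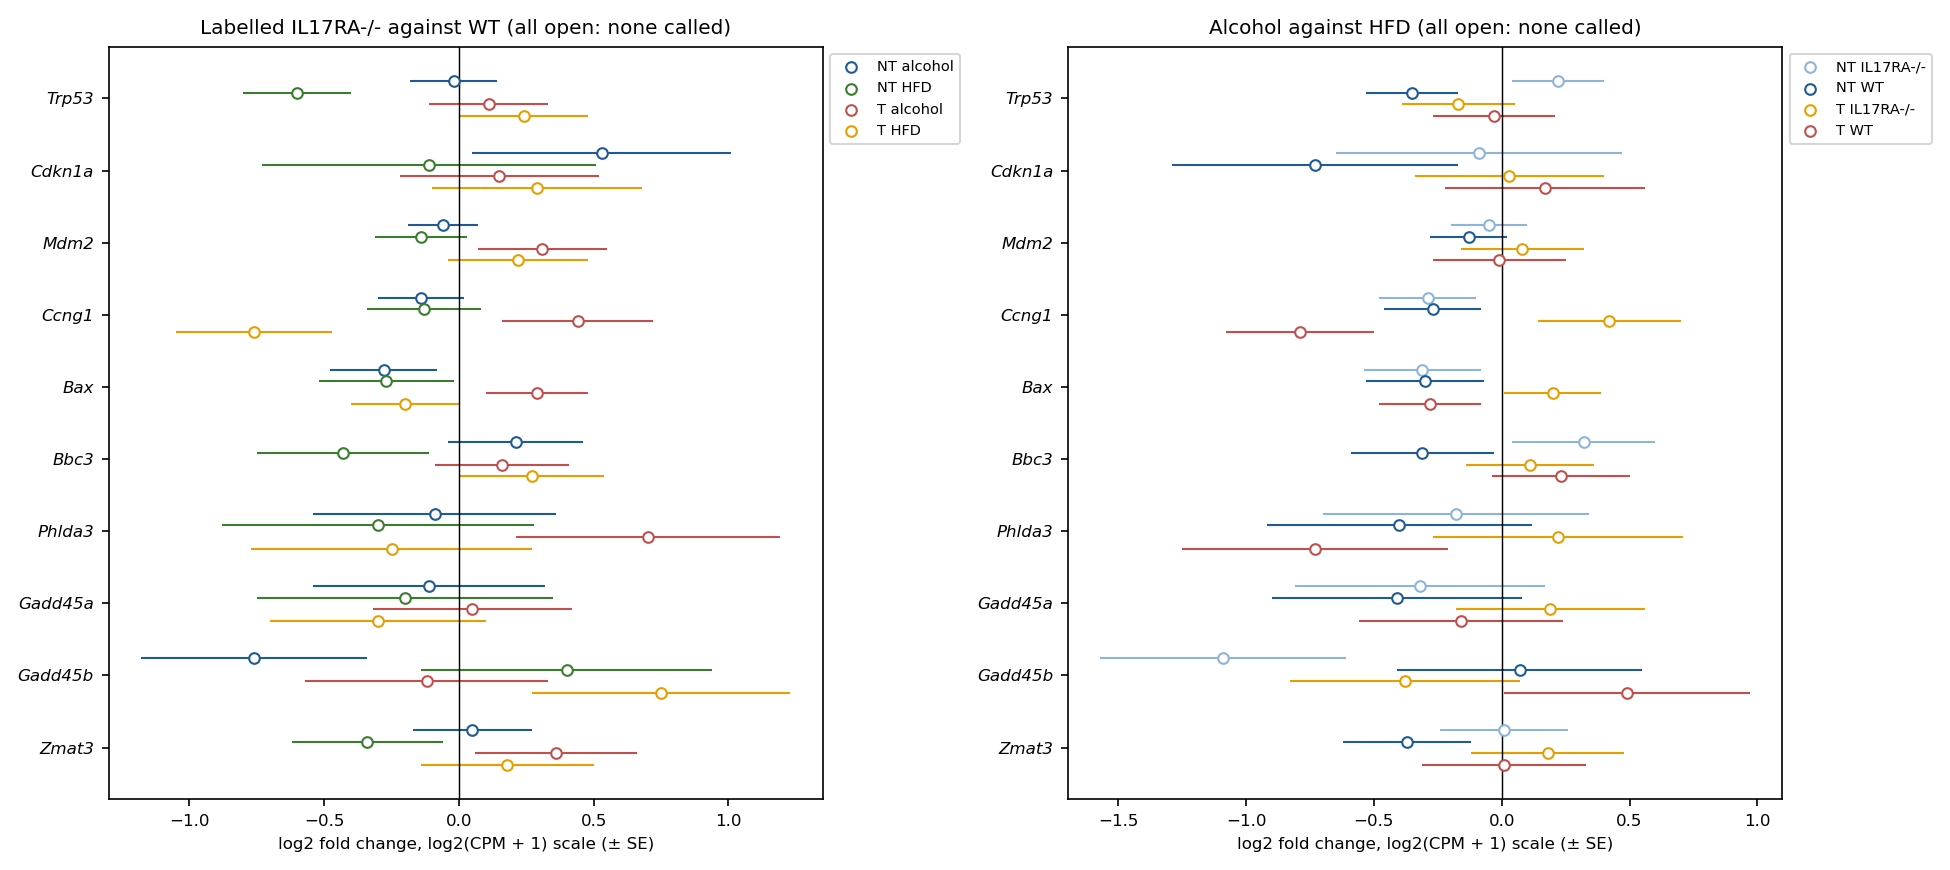
Log2 differences (log2(CPM + 1) scale, bars are SE) of each gene between genotype labels (left) and between diets (right), in non-tumour liver (NT) and tumours (T); open points did not pass the adjusted p threshold. All points are open, and those of Ccng1 in HFD tumours (-0.76) and in WT tumours (-0.79) lie among the farthest from 0.

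The members were set beside other genes of the pathway, from lists given by function. Of 41 wider p53 targets tested, 21 rose in tumours, 12 fell and 8 did not pass, with a median log2 fold change of 0.37; over all genes 36.6% rose and 27% fell. Psrc1, a microtubule-binding mitotic protein, rose from 1.32 ± 1.63 CPM (SD, n = 16) to 19.3 ± 8.82 CPM (SD, n = 13), a log2 fold change of 3.1 ± 0.3 (limma adjusted p = 2.17e-09). Tnfrsf10b, the TRAIL death receptor, rose from 1.4 ± 0.821 to 11.4 ± 2.7 CPM (2.38 ± 0.17); its lowest tumour, at 7.44 CPM, was above its highest non-tumour library, at 2.79 CPM. Tgfa, a ligand of the EGF receptor, rose from 34.7 ± 10.9 to 124 ± 53.8 CPM, and Ckap2, a spindle protein, from 2.97 ± 2.11 to 12.1 ± 6.42 CPM. The following genes, chosen after their values were seen, fell: Dcxr, a carbonyl reductase (59.2 ± 12.1 to 20.2 ± 4.81 CPM, -1.51 ± 0.11), Plk3, a stress-activated kinase (97.1 ± 34.2 to 42 ± 16.4 CPM, -1.26 ± 0.16), and Gdf15, a secreted stress cytokine (34.9 ± 23.4 to 15 ± 5.1 CPM, -1.02 ± 0.28). The wider targets therefore moved in both directions.

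Among 17 regulators and relatives of p53 tested, 6 rose, 3 fell and 8 did not pass, a share of risers close to the 36.6% of all genes. Cdkn2a, whose locus encodes the Mdm2 antagonist ARF and the kinase inhibitor p16, rose from 0.669 ± 0.469 to 2.29 ± 1.38 CPM (0.85 ± 0.19, limma adjusted p = 0.000458), with non-tumour values near the floor. Ppp1r13b and Ppp1r13l, which encode p53-binding proteins of the ASPP family, rose by 0.93 ± 0.12 and 0.86 ± 0.14, and the acetyltransferase Ep300 by 0.64 ± 0.1. Among those that fell, named after their values were seen, were the deacetylase Sirt1 (-0.49 ± 0.08) and the ubiquitin ligase Cop1 (-0.23 ± 0.06). Of 20 DNA damage sensing genes, 6 rose, 4 fell and 10 did not pass, which is near the shares over all genes (36.6% and 27%), and their median of 0.09 equalled that of all genes. Trp53bp1, which marks double-strand breaks, rose by 0.78 ± 0.11 and the checkpoint kinase Chek1 by 0.73 ± 0.18, H2afx, the histone phosphorylated at breaks, rose by 0.43 ± 0.14, and the mitotic inhibitor kinase Wee1 fell by 0.64 on the log2 scale. The other 3 that fell, named after their values were seen, were the break sensor gene Nbn (-0.4 ± 0.06), the kinase Atr (-0.3 ± 0.09) and the clamp loader Rad17 (-0.25 ± 0.07).

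Of 44 DNA repair genes, 18 rose, 9 fell and 17 did not pass, again near the shares over all genes (36.6% and 27%). Mpg, the glycosylase that removes alkylated purines, rose from 7.48 ± 1.16 to 15.3 ± 2.38 CPM (0.93 ± 0.08, limma adjusted p = 6.21e-10). Brca1, of homologous recombination, rose from 5.22 ± 2.18 to 12.7 ± 4.25 CPM, and the Fanconi genes Fanca and Fanci rose by 0.88 ± 0.21 and 0.86 ± 0.2. Mgmt, which removes alkyl groups from guanine and was named after its value was seen, fell from 12.8 ± 2.34 to 9.7 ± 1.74 CPM. In the BCL2 family 3 of 12 rose, 2 fell and 7 did not pass, both below those shares. Beside Bax, the genes for the survival proteins Bcl2l1 (35.6 ± 11 to 97.3 ± 27.9 CPM, 1.4 ± 0.17) and Bcl2 (5.88 ± 1.89 to 14.6 ± 3.39 CPM, 1.16 ± 0.14) rose, as did the pro-apoptotic Bcl2l11 (0.71 ± 0.19), while the pro-apoptotic Bik fell from 2.22 ± 0.779 to 0.896 ± 0.408 CPM. Of 9 genes for relatives and partners of GADD45 proteins, 1 rose, 4 fell and 4 did not pass. Gadd45g fell from 49.1 ± 25.9 to 17.5 ± 16.4 CPM (-1.72 ± 0.4), and the p38 pathway genes Map2k6 and Mapk14 fell by 0.74 and by 0.33 on the log2 scale.

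Of 19 CDK inhibitors and G1 cyclins, 11 rose, 1 fell and 7 did not pass. Over all genes 36.6% rose and 27% fell. Cdkn2b, the gene for the inhibitor p15, rose from 1.68 ± 1.95 to 20.1 ± 7.2 CPM (3.03 ± 0.29), and cyclin D1 (Ccnd1) from 35.9 ± 18.1 to 147 ± 39.5 CPM (2.03 ± 0.19), beside cyclin E1 (Ccne1, 1.68 ± 0.21) and Rbl1 (0.75 ± 0.17), a relative of the retinoblastoma protein. The list of cell cycle genes that p21 is known to repress held 19 genes, of which 19 rose, with a median of 1.25. Mki67, the proliferation marker, rose from 24.6 ± 13.6 to 108 ± 55.5 CPM, and Plk1, Ccna2 and Ccnb2 rose by 1.78 ± 0.21, 1.58 ± 0.28 and 1.55 ± 0.23. Cdkn1a and these genes were thus higher in the same tissue. Of 11 immediate early genes, induced by growth and stress signals, 5 rose, 2 fell and 4 did not pass, not far from those shares over all genes.

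**Figure D4:**
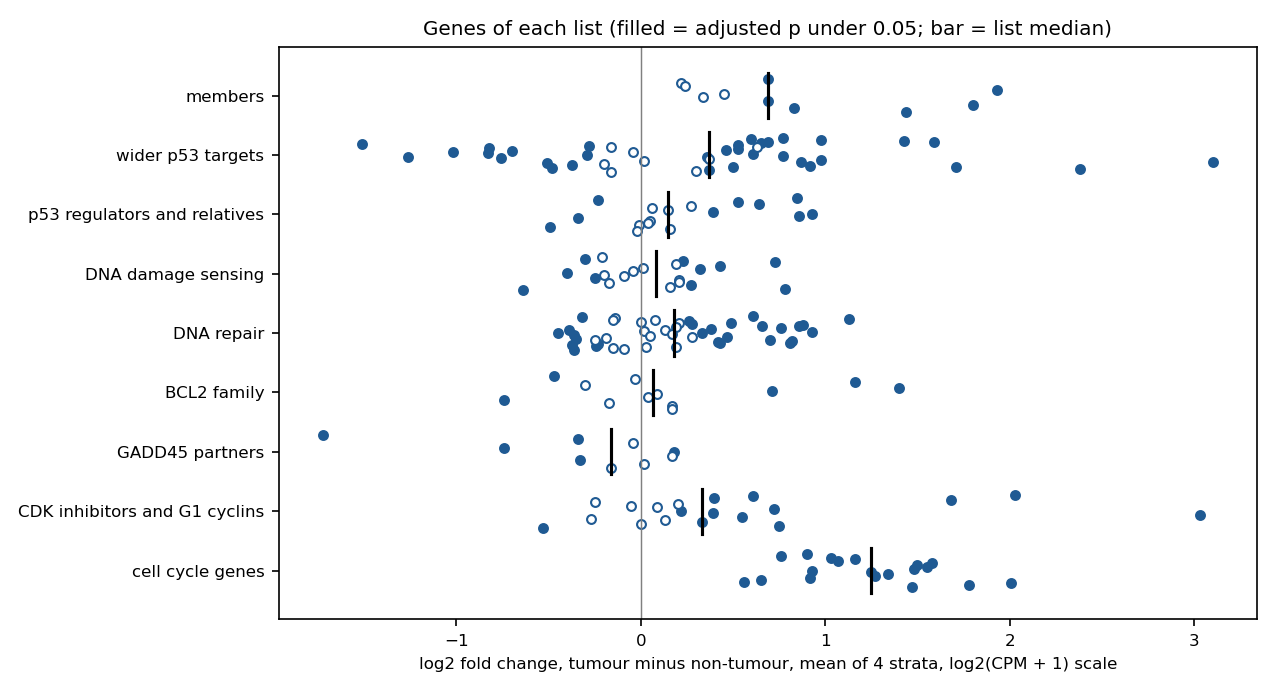
Log2 fold change of tumour against non-tumour liver (mean of the 4 strata, log2(CPM + 1) scale) of every tested gene in each list; filled points passed the adjusted p threshold and the bar is the list median. The cell cycle genes all lie right of 0 around a median of 1.25, whereas the wider p53 targets run from -1.51 (Dcxr) to 3.1 (Psrc1).

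Markers of cell types moved between the tissues as well, and their part in the members' rise was not tested. Over all genes 36.6% rose and 27% fell. All 5 Kupffer cell markers fell, from a summed 169 to 1200 CPM in non-tumour liver to 87.3 to 381 CPM in tumours, and none was at 0 in any library. Of 5 cholangiocyte markers 4 rose, from a summed 24.2 to 139 CPM to 87.5 to 1660 CPM, with Krt19 at 0 in at least 1 non-tumour library and Krt7 in at least 1 tumour. Of 5 stellate or fibroblast markers 3 rose and 2 fell, of 4 endothelial markers 1 fell, of 4 T or NK cell markers 1 rose, and none of 5 monocyte or neutrophil or 3 B cell markers was called. Among 6 hepatocyte markers Alb and Apoa1 rose, Cyp2e1, which activates DEN, fell from 3210 to 8760 CPM over non-tumour libraries to 124 to 1590 CPM over tumours, and Cps1 and Ttr fell.

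Within a tissue the members did not move as 1 block. WT alcohol tumour replicate 4 was lowest or second lowest of 13 tumours for 8 members (all but Gadd45a and Gadd45b), and WT HFD tumour replicate 4 for 4, where 37.4% and 15.5% of 13586 genes ranked so. Non-tumour HFD WT replicate 1 was highest or second highest of 16 for 7 members and for 32.2% of genes. The median-ratio size factors of these libraries were 0.853, 1.16 and 1.11. After division by them the counts were 5 members (18.7% of genes), 7 members (25.5%) and 4 members (19.9%), so these ranks depend in part on the scaling. The relation of Cdkn1a to each other member was tested on log2(CPM + 1) within each tissue, 18 relations in all, with permutation p-values from 100000 resamples and Benjamini-Hochberg adjustment. In non-tumour liver (n = 16) Pearson's r was 0.65 with Phlda3 (p = 0.0083, adjusted 0.0454) and 0.63 with Zmat3 (p = 0.0101, adjusted 0.0454). Spearman's rho was 0.62 (p = 0.0117, adjusted 0.0999) and 0.59 (p = 0.0169, adjusted 0.0999), and r was 0.56 and 0.61 without the 2 libraries farthest from the median of Cdkn1a. With Mdm2 r was 0.06 (permutation p = 0.817, adjusted 0.944; rho 0.16, p = 0.556, adjusted 0.739). With Ccng1 r was 0.52 (permutation p = 0.0405, adjusted 0.121) and rho 0.65 (p = 0.00799, adjusted 0.0999).

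In tumours (n = 13) r was 0.82 with Zmat3 (permutation p = 0.00186, adjusted 0.0335) and 0.7 with Mdm2 (p = 0.00921, adjusted 0.0454). The rank correlations were 0.44 (permutation p = 0.134, adjusted 0.402) and 0.31 (p = 0.296, adjusted 0.605). Without the WT replicates 4 on alcohol and on HFD, r was 0.32 and 0.06, so these relations rest on those 2 tumours. With Phlda3 r was 0.65 (permutation p = 0.0225, adjusted 0.081) and rho 0.64 (p = 0.0222, adjusted 0.0999), and r was 0.39 without those 2 tumours. With Trp53, r was 0.04 in tumours and -0.02 in non-tumour liver (permutation p = 0.919 and 0.944, both adjusted to 0.944; rho -0.08 and 0.08, p = 0.796 and 0.771, adjusted 0.796). None of the 18 rank correlations passed after adjustment.

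Likeness was also ranked over 9962 genes by the correlation of deviations from group means in the 29 libraries, given as a description. The genes most like Ccng1 began with Phlda3 (r = 0.85), followed by Gda, Galnt6, Tcn2 and Jam2 (each 0.82). Those most like Cdkn1a were Serinc3 (0.86), Bcl2l1 (0.84), Cp, Fndc3b and Serpina3m (each 0.8), none of them a member. For Gadd45b they were Washc5 and Slc4a1ap (0.72), and Upf3a, Akirin2 and P2rx4 (0.7). In the 2 tumours with the most Ccng1, WT HFD replicates 5 and 6 at 177 and 184 CPM, Phlda3 was also at its highest, 20.6 CPM in each. The lowest tumour for both was WT alcohol replicate 4, at 54.2 CPM of Ccng1 and 2.98 CPM of Phlda3.

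**Figure D5:**
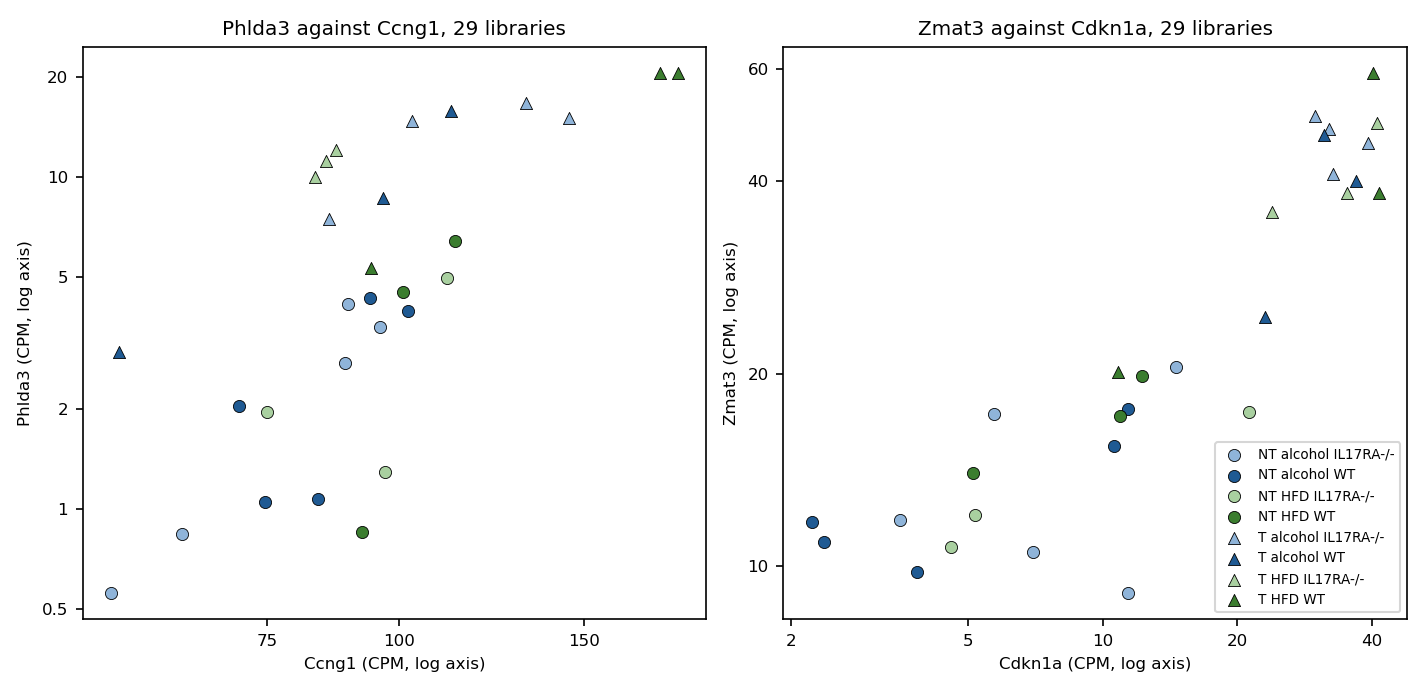
Phlda3 against Ccng1 (left) and Zmat3 against Cdkn1a (right) in each of the 29 libraries (CPM, log axes; circles non-tumour, triangles tumour, colours as diet and genotype label). Phlda3 rises with Ccng1 within each tissue but sits higher in tumours, and for Cdkn1a and Zmat3 the tumour cloud is apart from non-tumour liver except for WT HFD tumour replicate 4, at 10.8 and 20.1 CPM.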

How the data were processed

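Tumour and non-tumour liver RNA was isolated with a column kit and made into polyA-selected stranded libraries, per the labels' protocols. Per the submitters' processing notes the tools were STAR 2.5.1a and RSEM 1.3.0, with build GRCm38; no source names the annotation or a filter. The authors deposited 1 table of CPM. In each library 83.4% to 86.1% of nonzero values were whole counts within 0.002 counts and nearly all others hundredths, as RSEM's expected counts are, so depth was recovered; no 2 libraries of a group agreed within sampling noise. Symbols and coordinates came from GENCODE M21 (534 of 22187 IDs had none, at most 0.18% of counts).

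The values log2(CPM + 1) were tested with limma 3.58.1 (R 4.3.3, variance trend), two-sided, with Benjamini-Hochberg adjustment and a threshold of 0.05. Genes had to reach 1 CPM in 3 or more fitted libraries. Comparisons between tissues were fitted on 29 libraries, others on 16 non-tumour or 13 tumour libraries. The code was tested on simulated data. Members, lists and tests were chosen with earlier results of these data known. The rule named all members, per list up to 4 called genes with the largest change, and called p53 targets and regulators by genotype or diet; others are marked. As alternatives, the filter was dropped, the pseudocount set to 0.1, libraries rescaled by median ratios, only the compared groups fitted, limma-voom used, the replicate number taken as a block, and each library left out in turn; 2 fits without libraries that stood apart, 1 without 4 of them and 1 without labelled non-tumour alcohol replicates 2 and 4, were added after seeing the data. Deviations of same-numbered libraries correlated at 0.33, 0.26 and 0.13 between the diets of non-tumour WT, where the block changed no call. Elsewhere these correlations ran from -0.2 to 0.4, the highest for number 1 between the genotypes in non-tumour alcohol liver. The labels state no pairing.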

Additional observations from a re-analysis of the deposited data

Results flagged for a closer look

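Gadd45b in non-tumour alcohol liver labelled IL17RA-/- had 1 library far from the others: replicate 3 was at 5.49 CPM and the other 4 at 0.562 to 1.92 CPM, a gap of 0.724 of the group's range. Of the 30 combinations of member and group with 4 or more libraries, this was the only 1, and chance gives about 1 in 20. Without it the tumour difference of Gadd45b in this stratum was 1.24 on the log2 scale and was called, against 0.95 (limma adjusted p = 0.0912) with it.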

How the results depend on the processing

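Of 19 counts of called members, 16 kept within 1.5 times under all alternatives. Those by genotype, by diet and for interactions were 0 and stayed 0. Apart from genotype in HFD tumours, at most 1 gene of all tested was called in these comparisons, so little could change. Among the tumour counts, only those over all strata and in alcohol labelled IL17RA-/- kept within this range. In alcohol WT (6 members) the replicate block gave 3 and leaving out 1 library 2 to 6; in HFD labelled IL17RA-/- (6 members) leaving out 1 library gave 3 to 5. In HFD WT (2 members) a pseudocount of 0.1, no filter and limma-voom each gave 1, the compared groups alone 0, leaving out 1 library 0 to 5, and leaving out the 4 doubted libraries 6. The block moved calls over all genes from 5426 to 2228 (alcohol labelled IL17RA-/-) and from 4856 to 2374 (alcohol WT), with only 2 shared numbers. In the former it also took the members called from 7 to 6, of which 5 were among the 7. Outside these 2 strata the block changed no count of members. In these strata the numbers are not known to pair libraries. The block could not be fitted for HFD tumours against non-tumour liver, which were numbered apart. Of 3310 alternative values for single members, 3026 kept direction and call and 216 changed sign while uncalled. A call was lost in 53 and gained in 15, and 0 called values reversed. Many of those kept were uncalled to begin with, as all members were by genotype and by diet. Calls by genotype in HFD tumours went from 213 (80 higher, 133 lower) to 626 (416 and 210) with rescaling, 5 with the compared groups alone, 2 without the doubted libraries, and 0 to 1174 leaving out 1 library. The cause of these changes was not tested. At 3213696 counts, the shallowest library, genes near 1 CPM such as Bbc3 rest on few counts.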
